A study of Mus musculus with 18 samples.

Results

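The comparison described here sets stroke against no stroke in aged mice that all received bexarotene. It rests on 6 of the study's 18 libraries, chosen by their labels alone: 3 of mice with stroke and 3 of mice without. All 6 came from wild-type male mice aged 18 to 20 months, and the labels call them biological replicates. The p-values measure the spread between replicate libraries, estimated over all 18 libraries. Stroke was an ischemic stroke by middle cerebral artery occlusion (MCAo). Bexarotene, which activates the retinoid X receptor (RXR), was injected into the peritoneum at 5 mg/kg, with the first dose 24 hours after surgery and daily dosing for 2 days after that, and the vehicle of the study's other groups was 3% DMSO in saline. Brains were collected on day 3. The sources used here do not say whether the no-stroke mice had any surgery, or whether a library came from 1 animal or several. Cells were freed with papain and DNase and cleared of debris on Percoll, and Ly6G beads took out neutrophils. CD11b beads then selected microglia and macrophages for SMART-Seq v4 PLUS RNA libraries. Aged mice given vehicle, 3 libraries with stroke and 3 without, gave a second stroke effect that shares no library with the first.

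Microglia are the resident macrophages of the brain. In the healthy tissue they carry a set of homeostatic genes that is kept up by TGF-beta signalling. After ischemia they divide, take up debris and turn on inflammatory and lipid-handling genes, while monocytes enter the tissue from the blood and become macrophages. RXR is a nuclear receptor that pairs with the liver X receptors (LXR, cholesterol efflux), the retinoic acid receptors (RAR), the peroxisome proliferator-activated receptors (PPAR, fatty acid use) and the vitamin D receptor.

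Library totals were 9346466 to 11852638 counts without stroke and 16206144 to 29359943 with stroke, so the groups also differed in depth. On the first principal component of all 18 libraries, which held 59.9% of the variance, the stroke libraries lay at 88.7 to 114.4 and those without stroke at -38.2 to -37.8. The homeostatic microglial markers summed to 33200 CPM or more in every library, and neuronal markers to 3.45 CPM or less, as far as the CD11b selection can be checked. Replicates differed by more than sampling noise in every pair (chi-square per degree of freedom 7.25 to 40.3). Levels are given as CPM, the count of a gene relative to its library's scaled total, in the order of libraries 1, 2 and 3. All adjusted p-values are from edgeR's quasi-likelihood test with Benjamini-Hochberg adjustment over 15528 genes, and a gene was called at an adjusted p under 0.05. Fold changes are log2 values, stroke minus no stroke, with a standard error (SE) and n = 3 against 3 throughout. The sources used here do not say whether counting used strand or how reads with several matches were treated, so genes that overlap, antisense genes and near-identical copies (Ly6c, Ifit3, Oas1, Hspa1a and Hspa1b, class I heavy chains, ribosomal proteins, Cd209f and Cd209g, hemoglobins) are uncertain.

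Stroke changed the level of 7450 of 15528 genes under bexarotene, 48.0% of those tested. Of these, 4156 were higher with stroke (26.8%) and 3294 were lower (21.2%). Past a 2-fold change the calls were more one-sided, with 2404 genes higher (15.5%) and 1029 lower (6.63%). The 3 stroke and 3 no-stroke libraries did not overlap in 8735 genes (56.3%), and the median log2 fold change over all genes was 0.004. The lists below are read against these shares. In bulk RNA of selected cells, fewer cells of a type and less RNA per cell cannot be told apart.

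**Figure D1:**
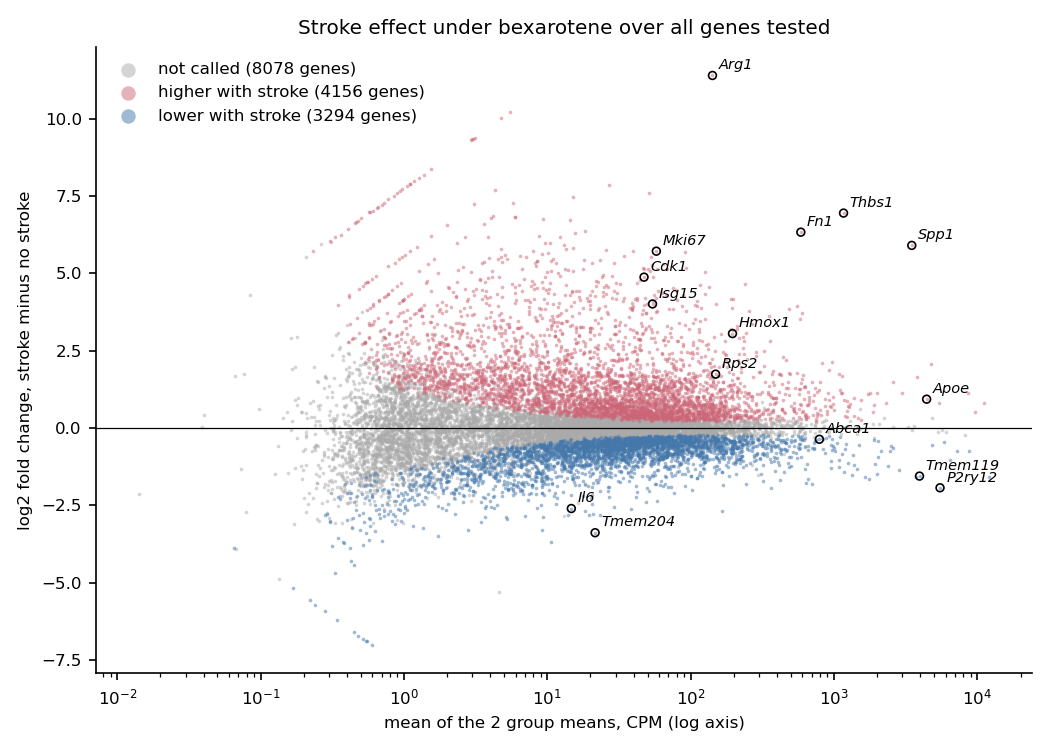
Log2 fold change, stroke minus no stroke, against the mean CPM of both groups (log axis) for all 15528 genes tested, with 1 point a gene and colour showing the call. The 2404 genes called more than 2-fold higher outnumber the 1029 called more than 2-fold lower; the slanted streaks at low CPM on both sides are genes with few or no counts in one group.

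Among called genes with at least 20 CPM and no overlap between groups, the 15 with the largest rise were Arg1, Saa3, Emp1, Vcan, Thbs1, Cxcl3, Sdc1, Fn1, Kif4, Aspm, Nxpe5, Melk, Spp1, Cd5l and Hic1. Arg1, the arginase that turns arginine into ornithine, stood at 0.103, 0.170 and 0 CPM without stroke and at 278, 438 and 135 CPM with stroke. That is 3 counts over all libraries without stroke against 17580 with stroke, a ratio of 2800 (95% counting interval 958 to 13600). Thbs1 and Fn1 encode the adhesive matrix proteins thrombospondin-1 and fibronectin, and Vcan encodes versican. Thbs1 rose from 18.2, 14.4 and 23.5 CPM to 1883, 4045 and 1004 CPM (log2 fold change 6.95 ± 0.56 SE). Fn1 rose from 10.3, 11 and 21.9 CPM to 1176, 1400 and 901 CPM (6.33 ± 0.61). In both genes the lowest stroke library was far above the highest library without stroke.

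The 15 genes with the largest fall were Tmem204, Cd209g, Mycl, Gm42944, Gprasp2, Angptl7, Upk1b, Hspa1b, Il6, Gimap6, Dnajc28, Cd209f, Sult1a1, Camp and Chst8. Their changes were smaller than those of the rising genes, from -3.39 for Tmem204 to -2.24 for Chst8. Upk1b, at 258, 330 and 269 CPM without stroke, fell to 48.7, 35.0 and 49.3 CPM (-2.68 ± 0.24, adjusted p = 1.66e-07). Il6, the inflammatory cytokine, was lower with stroke, at 20.4, 24.7 and 30.6 CPM against 4.26, 4.75 and 3.48 CPM (-2.60 ± 0.28). The heat shock gene Hspa1b rested on 1 library: it stood at 161, 17.0 and 18.2 CPM without stroke and at 7.11, 16.2 and 9.18 CPM with stroke. Its log2 fold change was -2.62 ± 0.99, and it was no longer called without the first no-stroke library, or without any one of the stroke libraries. Camp, an antimicrobial peptide of neutrophil granules, lost its call (adjusted p = 0.0408) without any one of 4 of the 6 libraries.

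Homeostatic microglial genes fell together. Of 18 listed and tested, 14 were lower, 11 of them by more than 2-fold, and none was higher; the median log2 fold change was -1.28 against 0.004 over all genes. P2ry12, the ADP receptor that steers microglial processes, stood at 8014, 9900 and 8174 CPM without stroke and at 2690, 1659 and 2488 CPM with stroke (-1.93 ± 0.16, adjusted p = 4.21e-08). Tmem119, a microglial surface marker, went from 5570, 6239 and 5861 CPM to 2145, 1752 and 2119 CPM (-1.55 ± 0.13). Cx3cr1, the fractalkine receptor, went from 4126, 4187 and 3908 CPM to 1850, 1372 and 1582 CPM (-1.35 ± 0.14). The groups of these 3 genes lay well apart, and the second stroke library was the lowest in each. Sall1, the transcription factor that holds microglial identity, fell by 1.20 ± 0.13. The fructose transporter Slc2a5 (-1.79 ± 0.14), the selectin ligand Selplg (-1.58 ± 0.13), the TGF-beta receptor Tgfbr1 (-1.47 ± 0.15) and the lectin Siglech (-1.42 ± 0.15) also fell.

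The fall did not take in the whole list. Chosen after their values were seen, members without a call, 4 in all, included Fcrls (0.03 ± 0.15), Olfml3 (0.15 ± 0.12) and Mef2c (-0.31 ± 0.13). Mef2c was called lower with DESeq2, the other scalings, the replicate block or thinned counts. It was also called without the second no-stroke or the first stroke library. The sign of Fcrls depended on the scaling or on 1 library, as given with the limits. Fcrls, a receptor-like microglial marker, stood at 2330, 2776 and 2591 CPM without stroke and at 2840, 2849 and 2174 CPM with stroke.

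**Figure D2:**
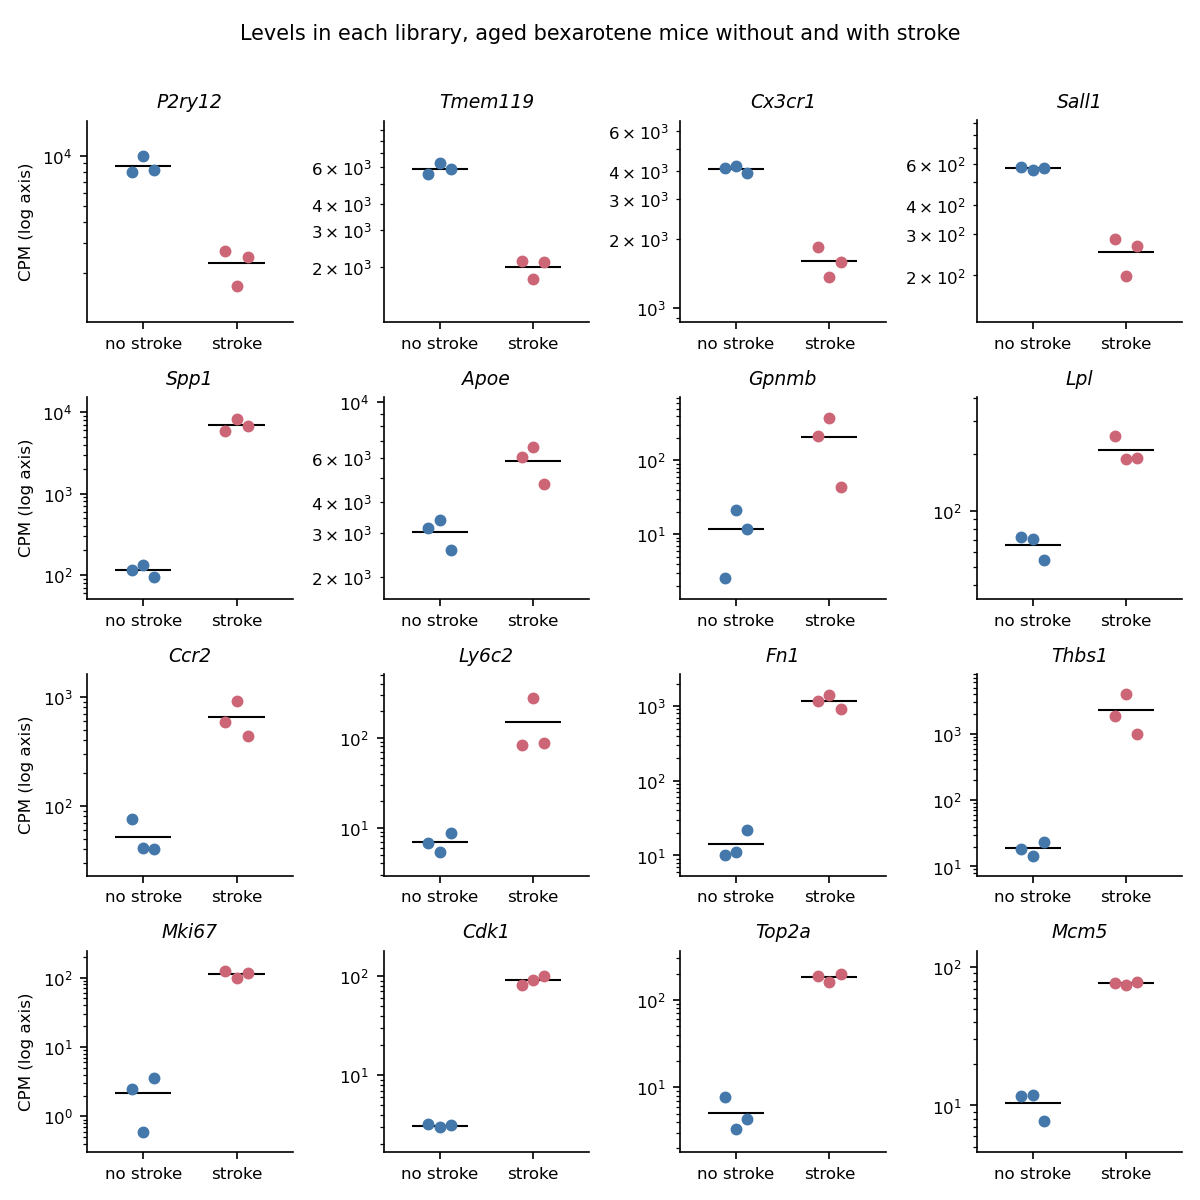
CPM on a log axis in each of the 3 libraries without stroke (blue) and the 3 with stroke (red) for 16 genes; points run from library 1 to 3, left to right, and the black line is the group mean. From top to bottom the rows are homeostatic, disease-associated, monocyte and cell division genes, and in none of the 16 do the groups overlap.

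Genes of the disease-associated microglial state, which microglia switch on around plaques, debris and dying cells, went the other way. Of 21 tested, 18 were higher, 14 of them by more than 2-fold, with a median of 1.23. Setting genes with no counts in a group to their bound shifted no list's median. Spp1, the secreted adhesion protein osteopontin, rose from 116, 132 and 95.3 CPM to 5785, 8123 and 6665 CPM (5.91 ± 0.61, adjusted p = 3.39e-06). Gpnmb, a transmembrane glycoprotein of lipid-laden macrophages, varied more, from 2.57, 21.6 and 11.8 CPM to 214, 371 and 43.4 CPM (4.10 ± 0.98). Apoe, the lipid carrier, went from 3155, 3393 and 2580 CPM to 6062, 6655 and 4709 CPM (0.93 ± 0.23). The groups lay apart in all 3, and the stroke libraries were further apart for Gpnmb than for Spp1 or Apoe. Lpl, a lipase that frees fatty acids from lipoproteins, rose by 1.68 ± 0.45, the tetraspanin Cd63 by 1.27 ± 0.15, and the cathepsins Ctsb and Ctsl by 1.14 ± 0.14 and 1.10 ± 0.14.

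The 3 exceptions in that list were picked out after their values were seen. Trem2, the lipid-sensing receptor on which much of this state depends, was lower, at 1161, 1295 and 1085 CPM without stroke and 929, 731 and 729 CPM with stroke (-0.57 ± 0.11, adjusted p = 0.00026). Igf1, a growth factor often counted with the state, stood at 17.9, 11.5 and 8.52 CPM against 17.6, 13.1 and 13.4 CPM and was not called (0.22 ± 0.39). Neither was the tetraspanin Cd9 (0.03 ± 0.18), whose sign turned with libraries scaled by their totals.

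Every one of the 16 markers of infiltrating monocytes and macrophages was higher with stroke, all by more than 2-fold, with a median of 4.05. Ccr2, the chemokine receptor that draws monocytes out of the blood, stood at 75.7, 41.0 and 40.3 CPM without stroke and at 589, 920 and 434 CPM with stroke (3.63 ± 0.48). Ly6c2, a surface marker of inflammatory monocytes with near-identical copies in the genome, rose from 6.69, 5.35 and 8.62 CPM to 83.7, 280 and 88.0 CPM (4.45 ± 0.77). The second stroke library was the highest in both. Summed over the 16 markers, the level was 2090 CPM in each library without stroke and 11600, 21700 and 9680 CPM with stroke. The homeostatic sum ran the opposite way, at 79000, 90600 and 78500 CPM without stroke and 42900, 33200 and 39100 CPM with stroke, so the second stroke library held the highest monocyte sum and the lowest homeostatic sum. Of the 16 markers, 15 had at least 10 CPM with stroke, and all 15 were highest in that library. Among all tested genes of at least 10 CPM with stroke, 3952 of 9374 were highest there. Without that library all 16 markers were still called higher, with a median of 3.61. How much of the other changes goes with this marker sum was not tested. Lyz2, lysozyme, which made up most of the sum, is also expressed by microglia.

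**Figure D3:**
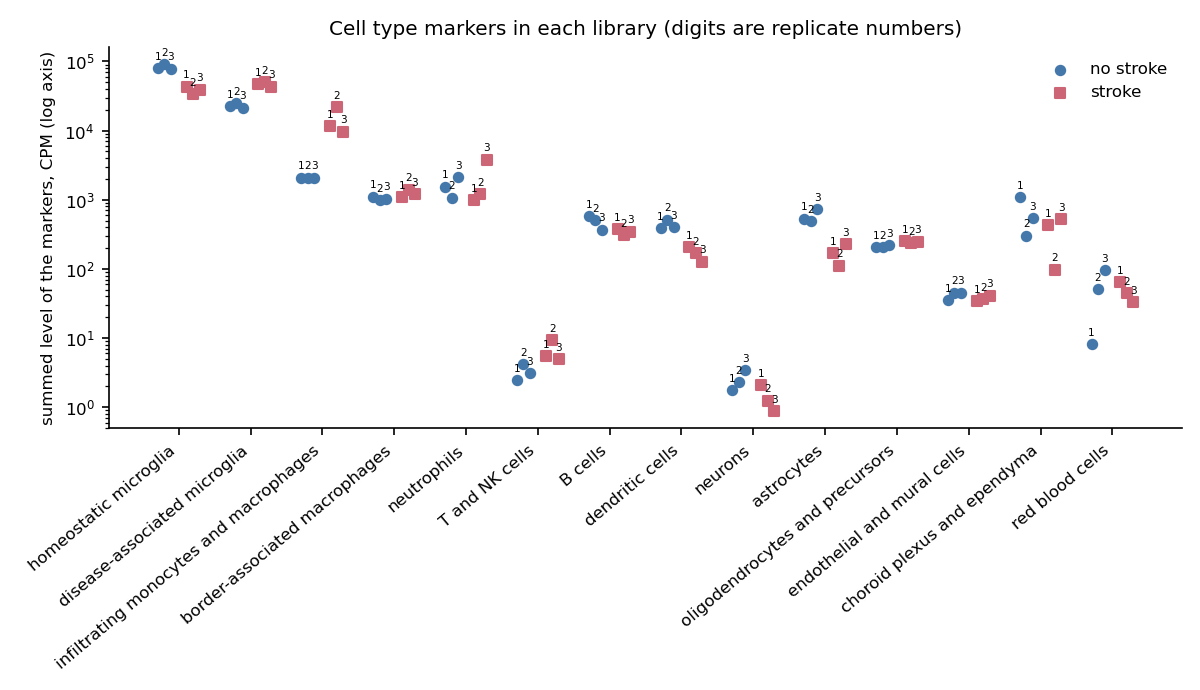
Summed CPM (log axis) of the markers of 14 cell types or states in each library without stroke (blue circles) and with stroke (red squares), with the replicate number above each point. The monocyte sums rise from 2090 CPM to 9680 CPM or more, the homeostatic sums fall, and those of T and NK cells and of neurons stay below 10 CPM in every library.

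Markers of other cells moved less or not as a group. Neutrophil markers, from a cell type the Ly6G beads were meant to remove, summed to 1550, 1070 and 2100 CPM without stroke and to 990, 1200 and 3790 CPM with stroke. Of 12, 1 was higher (Mmp9) and 1 lower (Camp), and 10 of 10 at 10 CPM or more were highest in the third stroke library. Leaving out 1 library gave 0 to 2 higher and 0 to 4 lower, the 4 being without that library. Border-associated macrophages of the meninges and vessels split: of 13 markers 4 were higher and 5 lower, the latter 3 when any library but the third stroke library was left out. In this list the coagulation factor F13a1 (1.36 ± 0.15) and the sialic acid lectin Siglec1 (2.23 ± 0.22) rose, while the mannose receptor Mrc1 (-0.85 ± 0.20) and the lectin Cd209f (-2.38 ± 0.24) fell.

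Dendritic cell markers gave 3 higher and 1 lower of 7. Flt3, the cytokine receptor of that lineage, rose from 2.06, 2.04 and 1.72 CPM to 10.6, 12.1 and 8.16 CPM (2.40 ± 0.41), while Fscn1, which microglia also express, fell by 1.81 ± 0.18. The 3 higher were 2 when any library but the third stroke library was left out, and 1 with limma voom. Clec9a, with 3 counts without stroke and 58 with stroke, overlapped between groups and lost its call in each of these settings. T and NK cell markers summed to at most 9.23 CPM, Cd3e, Cd3d, Cd3g, Cd8a and Cd8b1 were below the filter, and none of the other 7 was called. Of the 10 neuronal markers 9 were below the filter. The glutamate transporter Slc1a3 was the 1 of 8 astrocyte markers called (-1.93 ± 0.28). It fell from 520, 471 and 722 CPM to 153, 89.2 and 208 CPM. Without a call, Gfap, Aldh1l1, Gja1 and S100b were each higher in every stroke library than in any library without stroke. Gfap stood at 0.515 to 0.934 CPM without stroke and 1.44 to 2.18 CPM with stroke. Gja1 stood at 1.62 to 6.54 CPM and 6.62 to 9.83 CPM. Gja1 was called higher with no filter on low counts or without the second no-stroke library. Aqp4, Slc1a2 and Aldoc overlapped between groups. Choroid plexus markers varied within groups (301 to 1080 CPM without stroke, 97.9 to 518 CPM with stroke) and none of 7 was called. Among 8 oligodendrocyte markers, myelin genes moved little (Mbp 0.33 ± 0.11 and Mag -0.59 ± 0.16). Mbp was not called without the first no-stroke or the second stroke library. Cspg4, a proteoglycan of precursors and pericytes, rose from 1.24, 0.510 and 0 CPM to 17.1, 14 and 27.0 CPM. Other listed markers of those cells did not go with it: Pdgfra (36 counts without stroke, 29 with stroke) and Pdgfrb were not called. Olig1, Olig2, Rgs5 and Kcnj8 were below the filter.

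Cell division genes showed the largest shift of any list. All 22 mitosis genes were higher, all by more than 2-fold, with fold changes from 3.31 to 5.72 and a median of 4.83. Cdk1, the kinase that starts mitosis, stood at 3.19, 2.97 and 3.14 CPM without stroke and at 82.0, 91.5 and 101 CPM with stroke (4.88 ± 0.20, adjusted p = 3.38e-11). Mki67, the Ki-67 protein of dividing cells, went from 2.47, 0.595 and 3.55 CPM to 124, 97.5 and 118 CPM (5.72 ± 0.47). Top2a, the topoisomerase that untangles chromosomes, went from 7.72, 3.31 and 4.36 CPM to 188, 159 and 198 CPM (5.16 ± 0.32). Unlike the monocyte markers, none of the 22 was highest in the second stroke library: 7 were highest in the first and 15 in the third. The median ratio of the highest to the lowest stroke library was 1.22, against 2.12 for the monocyte markers and 1.23 for all genes of at least 10 CPM.

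Of 22 DNA replication genes, 21 were higher, 20 of them by more than 2-fold, with a median of 2.25. Unlike the mitosis genes, most were highest in the second stroke library. Of 21 with at least 10 CPM with stroke, 17 were highest there, 1 in the first and 3 in the third. The helicase subunits Mcm5 (2.87 ± 0.23) and Mcm6 (2.19 ± 0.18) and the nucleotide enzymes Rrm2 (5.16 ± 0.32) and Tk1 (4.19 ± 0.21) had the lowest p. Fen1, the flap endonuclease, was low in all libraries (0.507 to 2.25 CPM) and was the member without a call, singled out after its value was seen.

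Genes of mitosis are known to share promoter elements, so the sequences upstream of 4 members are shown, 120 bases ending at the annotated transcription start (RefSeq, GRCm38.p6, 5′ to 3′ on the gene's strand). Capitals mark the CCAAT box (CCAAT, or ATTGG where it lies on the other strand) and the cell cycle homology region (TTTGAA, or TTCAAA on the other strand).
Cdk1, chr10:69352913-69353032, minus strand: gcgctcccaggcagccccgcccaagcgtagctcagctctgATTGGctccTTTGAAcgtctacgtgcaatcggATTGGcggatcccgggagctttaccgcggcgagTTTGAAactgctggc
Top2a, chr11:99024190-99024309, minus strand: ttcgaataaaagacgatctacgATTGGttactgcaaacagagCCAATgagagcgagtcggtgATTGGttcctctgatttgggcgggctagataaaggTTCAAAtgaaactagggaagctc
Cdc20, chr4:118437344-118437463, minus strand: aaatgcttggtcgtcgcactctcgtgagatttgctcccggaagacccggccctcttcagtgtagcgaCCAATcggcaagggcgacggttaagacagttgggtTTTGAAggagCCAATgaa
Ube2c, chr2:164769809-164769928, plus strand: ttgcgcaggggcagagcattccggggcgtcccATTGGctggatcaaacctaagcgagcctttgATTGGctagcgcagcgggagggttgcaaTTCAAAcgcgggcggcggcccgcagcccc
These 4 were chosen because both elements lie in the stretch, with the cell cycle homology region downstream of at least 1 CCAAT box. Kif11 met the same rule and is not shown. Of 18 mitosis genes whose stretch was read, 5 held both elements, 10 CCAAT alone, 1 (Mki67) the cell cycle homology region alone and 2 neither.

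Counted on both strands in windows from 250 bases before to 50 bases after the start, CCAAT was present in 17 of the 19 mitosis genes with a listed promoter, against 41.1% of all 27025 genes in the table. TTTGAA was present in 14 of these 19, against 20.2% of all genes, and in 3 of 19 DNA replication promoters. The E2F site TTTGGCGC was found in 5 of 19 DNA replication promoters and in none of the mitosis promoters, against 0.585% of all genes. These are matches of letters, and no binding was measured. The motifs were settled on after counts for several had been seen.

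Interferon-stimulated genes rose as a block. All 18 were higher, all by more than 2-fold, with a median of 3.11 and the largest rise, 4.55, in Rsad2, an antiviral enzyme. Oas1a, which senses double-stranded RNA, went from 24.7, 21.1 and 21.5 CPM to 191, 235 and 188 CPM (3.19 ± 0.17, adjusted p = 3.66e-10). Isg15, a ubiquitin-like modifier, went from 6.90, 5.86 and 6.19 CPM to 69.8, 152 and 84.6 CPM (4.01 ± 0.28). Ifit1, which binds foreign RNA, went from 14.7, 12.2 and 10.8 CPM to 115, 242 and 162 CPM (3.78 ± 0.35). The second stroke library was the highest in 14 of the 18, against 3952 of 9374 over all genes of at least 10 CPM with stroke. It was also the highest in 22 of 23 proteasome and 18 of 20 oxidative phosphorylation genes. For mitosis genes it was the highest in 0 of 22, and for homeostatic genes in 1 of 18. Without that library all 18 interferon genes were still called higher, with a median of 2.97.

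The interferon response is read out through an element of the letters GAAA repeated after 2 bases of any kind, on either strand. The same 120 bases of 3 members are shown with each such match in capitals, where TTTC marks a match on the other strand.
Ifit1, chr19:34640769-34640888, plus strand: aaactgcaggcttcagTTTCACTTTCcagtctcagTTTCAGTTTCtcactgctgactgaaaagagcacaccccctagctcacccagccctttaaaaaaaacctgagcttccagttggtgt
Isg15, chr4:156200819-156200938, minus strand: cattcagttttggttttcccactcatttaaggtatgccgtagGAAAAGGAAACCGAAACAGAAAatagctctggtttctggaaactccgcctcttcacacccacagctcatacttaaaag
Oas1a, chr5:120907526-120907645, minus strand: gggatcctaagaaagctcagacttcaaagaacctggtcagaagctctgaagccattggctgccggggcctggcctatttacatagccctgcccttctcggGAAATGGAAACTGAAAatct
The 3 were chosen for their matches, and 5 of the 12 interferon stretches read held one. Overlapping matches run together in Isg15 and Oas1a, while Ifit1 carries 2 separate ones. In the full window the element was present in 9 of 13 interferon genes with a listed promoter, in 1 of 19 mitosis promoters and in 3.99% of all genes.

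Of 11 genes of antigen presentation by class I 9 were higher, with a median of 0.83. H2-K1, a class I heavy chain with near-identical relatives, went from 465, 403 and 393 CPM to 1254, 1034 and 1254 CPM (1.49 ± 0.15). The peptide transporter subunit Tap1 rose by 1.59 ± 0.11 and the class I transactivator Nlrc5 by 2.11 ± 0.22. Of 7 class II genes only the transactivator Ciita was called (1.59 ± 0.58, adjusted p = 0.0325), with overlapping groups, and it lost its call without any one of 4 of the 6 libraries. H2-Aa stood at 286, 170 and 145 CPM without stroke and 337, 351 and 165 CPM with stroke. The class II median was 0.45. With 1 library left out it ran from 0.265 without the first stroke library to 0.75 without the first no-stroke library, and was 0.74 without the third stroke library. Whether the lists differ from each other was not tested.

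Cytokines did not move in one direction. Of 16 inflammatory cytokine and enzyme genes, 9 were higher and 4 lower, with a median of 1.16. Tnf rose from 5.97, 3.57 and 4.87 CPM to 25.4, 38.7 and 40.9 CPM (2.87 ± 0.27). Il1b rose from 26.9, 24.1 and 67.8 CPM to 162, 268 and 158 CPM (2.31 ± 0.63), and Osm, oncostatin M, by 2.59 ± 0.38. All 3 stroke libraries lay above all 3 without stroke for each of these. Il6 fell, as given above. The other lower members, named after their values were seen, were Il1a (-0.57 ± 0.21), the inflammasome sensor Nlrp3 (-0.40 ± 0.11) and the NF-kappaB inhibitor Tnfaip3 (-0.34 ± 0.12). Without the first no-stroke, the first stroke or the second stroke library only 2 of the 4 were called. The 9 higher members were 7 to 10 with 1 library left out. Among them Nos2 had 0 counts without stroke and ran from 0 to 5.33 CPM with stroke. It lost its call with DESeq2, with limma voom and without any library but the first stroke library.

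Of 15 chemokines, 10 were higher and 1 lower, with a median of 1.89. Ccl2, the Ccr2 ligand that recruits monocytes, went from 24.9, 14.2 and 22.7 CPM to 246, 546 and 330 CPM (4.19 ± 0.32). Ccl12 (2.49 ± 0.24) and Ccl4 (2.58 ± 0.24) rose as well, and the rise of Ccl5 was 3.57 ± 0.40. The lower one was the eotaxin Ccl24 (-1.19 ± 0.33), picked out after its value was seen. Immediate early transcription factors gave 8 higher and 0 lower of 17, among them Atf3 (2.28 ± 0.27), Ier3 (2.93 ± 0.29), Fosl2 (1.62 ± 0.30) and Fos (2.14 ± 0.45).

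Of 14 Toll-like receptor genes and adaptors 4 were higher and 4 lower, shares near the 26.8% and 21.2% of all genes. Tlr2, which binds bacterial lipoproteins, rose from 259, 257 and 197 CPM to 664, 645 and 600 CPM (1.42 ± 0.17), and Tlr8 rose by 2.08 ± 0.28. Tlr4, the endotoxin receptor, fell from 303, 271 and 280 CPM to 167, 137 and 205 CPM (-0.75 ± 0.14). Of 12 complement genes 8 were higher and 1 lower, and properdin, Cfp, rose by 3.08 ± 0.21. Factor B (Cfb) had 0 counts in all 3 libraries without stroke and 161 with stroke, which is at least 25.6-fold higher, taking 3 counts over the group as the floor. The C1q chains C1qa, C1qb and C1qc were not called.

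Purinergic genes gave 5 higher and 5 lower of 12. The ADP receptors P2ry12 and P2ry13 (-1.5 ± 0.15) and the ATP-degrading enzyme Entpd1 (-1.66 ± 0.12) fell, and the adenosine receptor Adora2b rose from 1.65, 0.764 and 1.32 CPM to 8.25, 11.7 and 7 CPM (2.86 ± 0.39). Of 11 immune checkpoint genes 5 were higher and 5 lower. Vsir, the checkpoint VISTA, fell from 1822, 2093 and 1878 CPM to 890, 734 and 878 CPM (-1.21 ± 0.10). The costimulator Cd80 also fell (-1.31 ± 0.14), and Pdcd1, PD-1, rose from 12.9, 9.94 and 8.52 CPM to 56.4, 50.3 and 38 CPM (2.21 ± 0.23). Among 17 C-type lectins and Siglecs 9 were higher and 6 lower, with Clec4a1 (2.02 ± 0.23) and Clec4n (1.81 ± 0.23) among the former and Siglech among the latter.

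Phagocytic receptors moved in opposite directions, 7 higher and 6 lower of 18. The scavenger receptor Msr1 rose from 45.4, 37.1 and 33.6 CPM to 291, 478 and 370 CPM (3.29 ± 0.18, adjusted p = 6.96e-10). Mertk, the receptor by which microglia bind dying cells, fell from 847, 932 and 923 CPM to 412, 301 and 502 CPM (-1.15 ± 0.13). The integrin subunit Itgb5, used in the same task, fell by 0.57 ± 0.10. Of 22 lysosomal genes 11 were higher and 2 lower; the glucuronidase Gusb (1.33 ± 0.10) and progranulin, Grn (1.12 ± 0.10), rose in all 3 stroke libraries.

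Genes of protein and energy supply were mostly higher. All 32 cytosolic ribosomal protein genes were higher, 30 of them by more than 2-fold, between 0.92 and 1.82, with a median of 1.31. Rpl32 went from 62.0, 68.5 and 50.5 CPM to 207, 207 and 200.4 CPM (1.76 ± 0.12), and Rps2 rose by 1.74 ± 0.13. Of 23 proteasome genes 19 were higher, none by 2-fold (median 0.57, Psmb4 0.94 ± 0.13). Oxidative phosphorylation gave 17 higher and 0 lower of 20 (median 0.88, Cox5a 1.5 ± 0.13), though 6 passed 2-fold. Glycolysis and hypoxia genes gave 13 higher and 1 lower of 19 (median 1.40). Ribosomal protein genes have many processed copies in the genome, so their counts depend on how reads with several matches were treated.

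Pkm, pyruvate kinase, went from 357, 470 and 360 CPM to 1362, 1741 and 1271 CPM (1.88 ± 0.14). Gapdh (1.71 ± 0.14) and lactate dehydrogenase, Ldha (1.77 ± 0.16), rose by similar amounts. Vegfa, the vascular growth factor induced by low oxygen, went from 4.53, 2.63 and 3.65 CPM to 98.6, 176 and 41.9 CPM (4.88 ± 0.59) and was lowest in the third stroke library. The member that fell was Pfkfb3 (-0.50 ± 0.12), named after its value was seen.

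Heme and iron genes were among the clearest single changes. Hmox1, heme oxygenase 1, which opens the heme ring and frees its iron, went from 44.3, 44.7 and 37.1 CPM to 342, 432 and 274 CPM (3.05 ± 0.20, adjusted p = 3.91e-09). The ferritin chains Fth1 and Ftl1, which store iron, rose by 1.64 ± 0.14 and 1.67 ± 0.14. Ferroportin, Slc40a1, which exports iron, fell from 618, 671 and 638 CPM to 217, 176 and 202 CPM (-1.69 ± 0.11). Hemoglobin transcripts, a sign of red blood cell RNA, were low and overlapped between groups (red cell markers 8.13 to 94.9 CPM without stroke and 32.9 to 63.9 CPM with stroke). Of the 16 genes of the NRF2, heme and iron list 9 were higher and 5 lower. The other members that fell, named after their values were seen, were Gclc (-0.90 ± 0.10), Hpgd (-1.48 ± 0.19), Blvrb (-0.39 ± 0.14) and Cd163 (-0.89 ± 0.35). Leaving out any one of the no-stroke libraries left 3 called lower, and Blvrb and Cd163 lost their calls without each of them. The antioxidant response element TGACNNNGC, searched on both strands, was present in 5 of 12 promoters of this list, in 5 of 13 interferon promoters and in 14% of all genes.

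**Figure D4:**
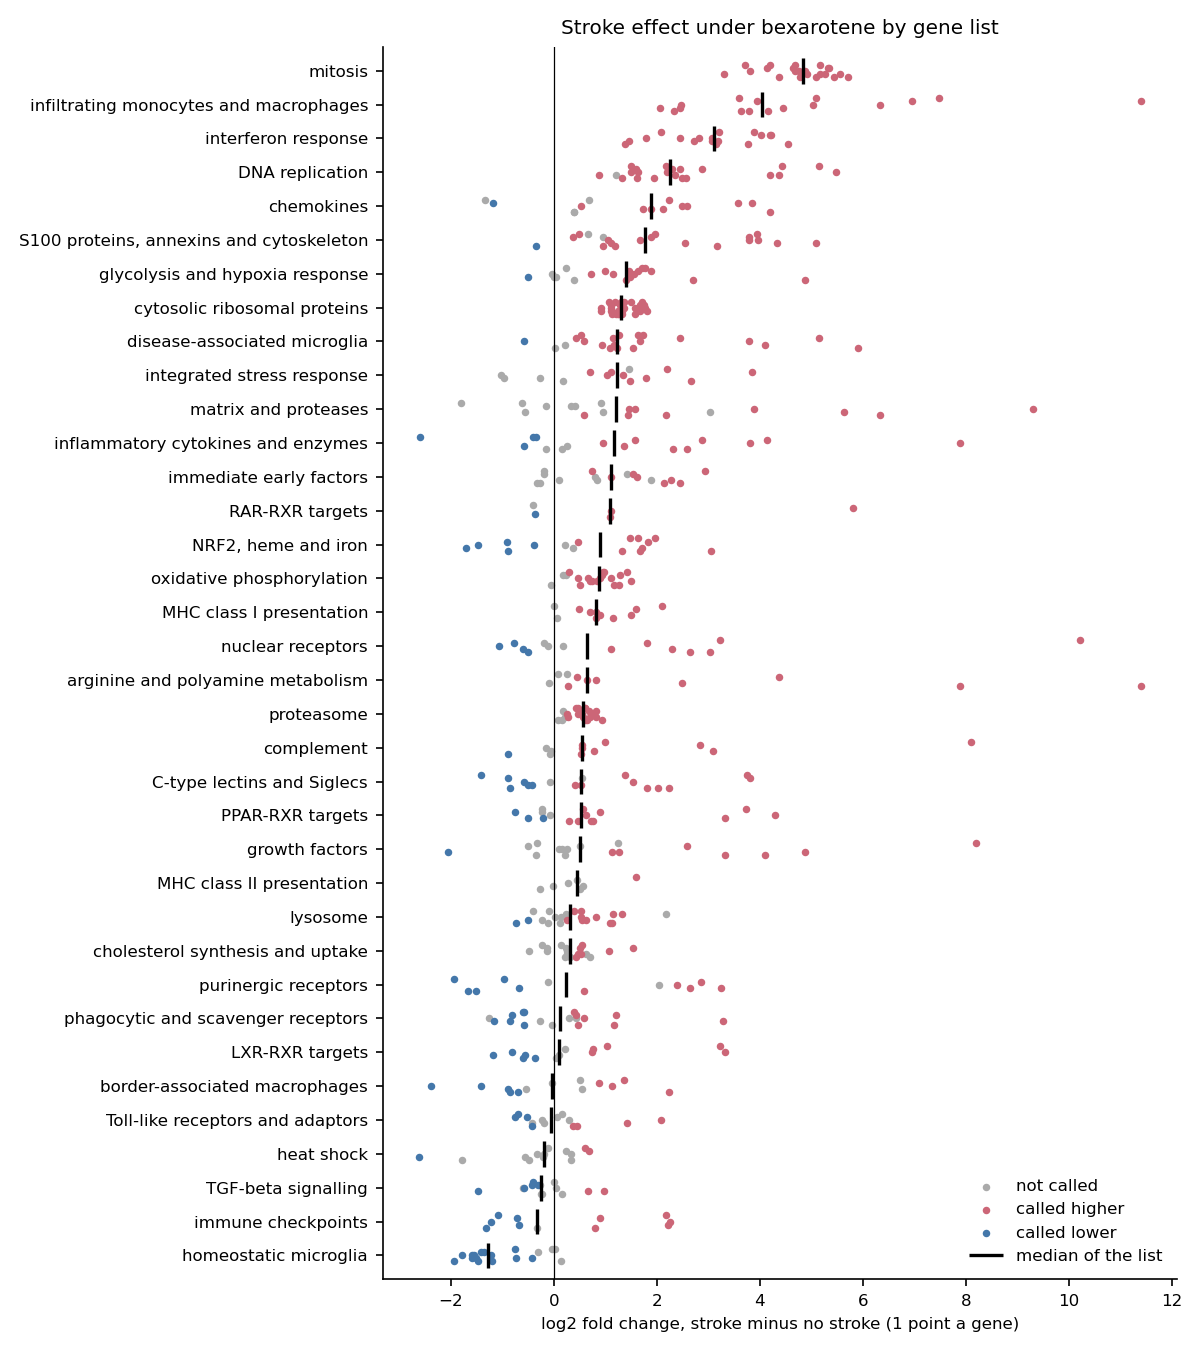
Log2 fold change, stroke minus no stroke, of every tested gene (points) in 36 gene lists, ordered by the list median (bar). Mitosis, with a median of 4.83, lies at the top, homeostatic microglial genes, with a median of -1.28, at the bottom, and the median over all genes is 0.004.

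Of 14 genes of the integrated stress response 9 were higher and 0 lower (median 1.22), led by Mthfd2 (2.20 ± 0.21), Nupr1 (1.34 ± 0.13), Sesn2 (1.47 ± 0.15) and Psat1 (1.78 ± 0.24), which serve one-carbon metabolism, serine synthesis and the stress response itself. Of 13 heat shock genes 2 were higher and 1 lower (median -0.19). Those 2 were Hsp90aa1 (0.69 ± 0.22) and Hspe1 (0.60 ± 0.18), and the lower was Hspa1b. Without the third no-stroke library neither of the higher ones was called, and without the second stroke library Hsp90aa1 was not.

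Of 18 matrix genes and proteases 9 were higher, 0 lower and 9 not called (median 1.20). With 1 library left out 6 to 9 were higher, the 6 being without the third stroke library (median 0.86). Timp1, an inhibitor of metalloproteinases, had 0 counts without stroke and 358 with stroke, at least 57-fold higher against a floor of 3 counts over the group, and stood at 5.20, 9.63 and 2.87 CPM with stroke. Mmp9, a gelatinase that neutrophils also carry, was highest in the third stroke library (128, 165 and 338 CPM against 75.6, 47.3 and 107 CPM without stroke), the library with the highest neutrophil sum. Without that library, or without any one of 3 others, Mmp9 was not called. Of 20 S100, annexin and cytoskeletal genes 17 were higher and 1 lower (median 1.77). Vim, vimentin, went from 12.5, 12.1 and 11.6 CPM to 192, 378 and 154 CPM (4.32 ± 0.35), and the galectin Lgals1 rose by 3.96 ± 0.27. In this list 15 of the 19 genes at 10 CPM or more were highest in the second stroke library, the one with the highest monocyte sum. Over all genes of that level it was 3952 of 9374. The relation of this list to the monocyte sum was not tested.

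Of 17 growth factor genes 7 were higher, 1 lower and 9 not called. Besides Vegfa, Gdf15, a stress-induced member of the TGF-beta family, rose from 0.721, 0.850 and 0.710 CPM to 7.63, 10.6 and 4.91 CPM (3.32 ± 0.51). Hbegf, a ligand of the EGF receptor chosen after its value was seen, was the one that fell (-2.05 ± 0.35). Of 11 arginine and polyamine genes 8 were higher, 4 without the first no-stroke library and 5 without the second no-stroke, the second stroke or the third stroke library. They include Arg1, the argininosuccinate synthase Ass1 (4.36 ± 0.55) and ornithine decarboxylase, Odc1 (0.83 ± 0.11). TGF-beta signalling gave 2 higher and 5 lower of 14 (median -0.25). Tgfbr1, Smad3 (-0.40 ± 0.12) and Smad7 (-0.57 ± 0.13) fell. The 2 higher were 1 without any one of the no-stroke libraries or the first stroke library, and 0 without the second stroke library. The 5 lower were 3 without the second no-stroke or the first stroke library, and 8 when libraries were scaled by their totals alone.

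Since all 6 libraries came from mice given the RXR agonist, the receptor and its partners were looked at next. Rxra, the RXR form common in macrophages, fell from 72.9, 71.2 and 77.3 CPM to 57.6, 48.4 and 50.9 CPM (-0.49 ± 0.11, adjusted p = 0.000914). Rxrb fell by 0.60 ± 0.10. Nr1h3, LXR alpha, rose from 1.34, 0.764 and 1.42 CPM to 9.12, 18.1 and 5.89 CPM (3.23 ± 0.48). Rara rose from 3.50, 4.16 and 7.5 CPM to 28.3, 40.5 and 26.2 CPM (2.65 ± 0.37), and Pparg by 1.81 ± 0.45. Vdr, the vitamin D receptor, had 0 counts without stroke and stood at 12.9, 16.4 and 3.80 CPM with stroke, at least 112-fold higher against the floor of 3 counts over the group. So 2 RXR forms were lower and the partners named above were higher, but Rxrg, Nr1h2 and Ppard were not called. Nr1h2, the other LXR, stood at 69.28 to 70.68 CPM without stroke and 53.39 to 66.07 CPM with stroke. Rarg was called higher, but not without the first no-stroke or the first or second stroke library. These 4 were also named after their values were seen. Over the 14 nuclear receptors tested, 7 were higher and 4 lower; Rxrb, Pparg and the thyroid hormone receptor Thra (-1.06 ± 0.38) were chosen after their values were seen, and Thra lost its call without the third library of either group. Nr3c1, the glucocorticoid receptor, fell by 0.77 ± 0.10.

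Targets of LXR with RXR were divided, 5 higher and 5 lower of 13, with a median of 0.11. The cholesterol exporter Abcg1 fell from 383, 453 and 514 CPM to 268, 297 and 357 CPM (-0.55 ± 0.13, adjusted p = 0.0017). Abca1, the other main exporter, stood at 901, 774 and 992 CPM without stroke and at 631, 661 and 781 CPM with stroke (-0.36 ± 0.14, adjusted p = 0.0382). The Abca1 groups overlapped, and its call was lost without the first or the third no-stroke library or the first or second stroke library. Eepd1, a nuclease-like protein of cholesterol efflux, fell from 88.0, 113 and 145 CPM to 33.9, 65.7 and 53.0 CPM (-1.19 ± 0.25). Mylip, a ubiquitin ligase of lipoprotein uptake, fell by 0.81 ± 0.16, and the phospholipid enzyme Lpcat3 by 0.59 ± 0.09. Higher were Apoc1 (3.32 ± 0.45), Nr1h3 itself, the desaturase Scd2 (0.75 ± 0.17), Fasn (0.76 ± 0.24) and Pltp (1.04 ± 0.35). Fasn and Pltp lost their calls without the third no-stroke or the second stroke library, which left 3 higher; Pltp lost its call without the second no-stroke library as well.

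Of 5 RAR targets tested, 3 were higher (Tgm2, Hic1 and Rarg) and 1 lower. Rarg lost its call without the first no-stroke or the first or second stroke library, which left 2 higher. Tgm2, a transglutaminase, rose from 365, 378 and 357 CPM to 645, 1192 and 503 CPM (1.09 ± 0.25), and Dhrs3, which reduces retinal, fell by 0.37 ± 0.09. PPAR targets gave 10 higher and 3 lower of 16. Plin2, the coat protein of lipid droplets, rose from 75.2, 106 and 72.1 CPM to 901, 1489 and 952 CPM (3.72 ± 0.27), and Angptl4, a lipase inhibitor, from 0.309, 2.38 and 1.01 CPM to 22.5, 24.5 and 28.5 CPM (4.30 ± 0.54). Acadm, a dehydrogenase of fatty acid oxidation, fell by 0.75 ± 0.08, and the carnitine transferase Cpt1a rose by 0.75 ± 0.14. Of 19 genes of cholesterol synthesis and uptake 7 were higher and 0 lower (4 without the third no-stroke library). The epoxidase Sqle rose by 1.07 ± 0.18.

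The stroke effect under bexarotene was then set against that under vehicle, as the difference of the fold changes in the same model. No gene was called for the difference by edgeR (0%), and 638 genes, 4.11%, had an unadjusted p under 0.05. The median SE of a difference was 0.282, so for a typical gene taken alone a difference well under 2-fold lay within the error. A call also had to pass the adjustment over 15528 genes. Larger differences could therefore go uncalled by edgeR too, as for Abcg1 and Eepd1 below. DESeq2 called 2 genes, Abcg1 (adjusted p = 0.0292) and Cd38 (adjusted p = 0.0377), limma voom called none, and edgeR with no filter on low counts called 256. List medians were near each other in some lists: -1.28 under bexarotene and -1.42 under vehicle for homeostatic genes, 4.83 and 4.47 for mitosis, 3.11 and 3.27 for interferon genes, 1.31 and 1.11 for ribosomal proteins. In others they were further apart: 4.05 and 5.22 for monocyte markers, 1.77 and 2.63 for S100, annexin and cytoskeletal genes, and 1.12 and 1.80 for immediate early factors. Among markers of other cells they were 0.605 and 1.44 for neutrophils, 0.83 and 2.08 for T and NK cells, and -1.08 and 0.55, of opposite sign, for choroid plexus. With stroke the summed monocyte markers overlapped, at 9680 to 21700 CPM under bexarotene and 11700 to 19000 CPM under vehicle. No test of these differences between lists was made. A difference that misses the threshold does not show that the effects are alike.

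The genes with the lowest p for a smaller or more negative stroke effect under bexarotene were Abcg1, Frmd6, Hecw2, Tnfsf14 and Fam43a, and those for a larger one were Galnt3, Zfp879, Bnc2, Gtf2h2 and Gm16299. None was called by edgeR, and DESeq2 called Abcg1 among them, as given above. Abcg1 is the one among them in the receptor target lists. Its fold change was -0.55 ± 0.13 under bexarotene and 0.40 ± 0.13 under vehicle, a difference of -0.95 (95% interval -1.33 to -0.56, edgeR adjusted p = 0.535, DESeq2 adjusted p = 0.0292). Eepd1 had -1.19 ± 0.25 under bexarotene and 0.38 ± 0.26 under vehicle, a difference of -1.57 (-2.34 to -0.79, adjusted p = 0.817). Tgm2 had 1.09 ± 0.25 and 2.06 ± 0.26, a difference of -0.97 (-1.73 to -0.20). For Abca1 the difference was -0.38 (-0.79 to 0.03), and for Cpt1a -0.50 (-0.90 to -0.09). These members were picked after their values were seen, and the intervals are for single genes and not adjusted for the number of genes tested. Of other members, Mylip differed by 0.35 (-0.13 to 0.83), Lpcat3 by -0.11 (-0.36 to 0.15) and Plin2 by 0.39 (-0.36 to 1.14). The median difference was -0.07 over the LXR list, -0.26 over the RAR list and -0.15 over the PPAR list, against 0.002 over all genes.

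**Figure D5:**
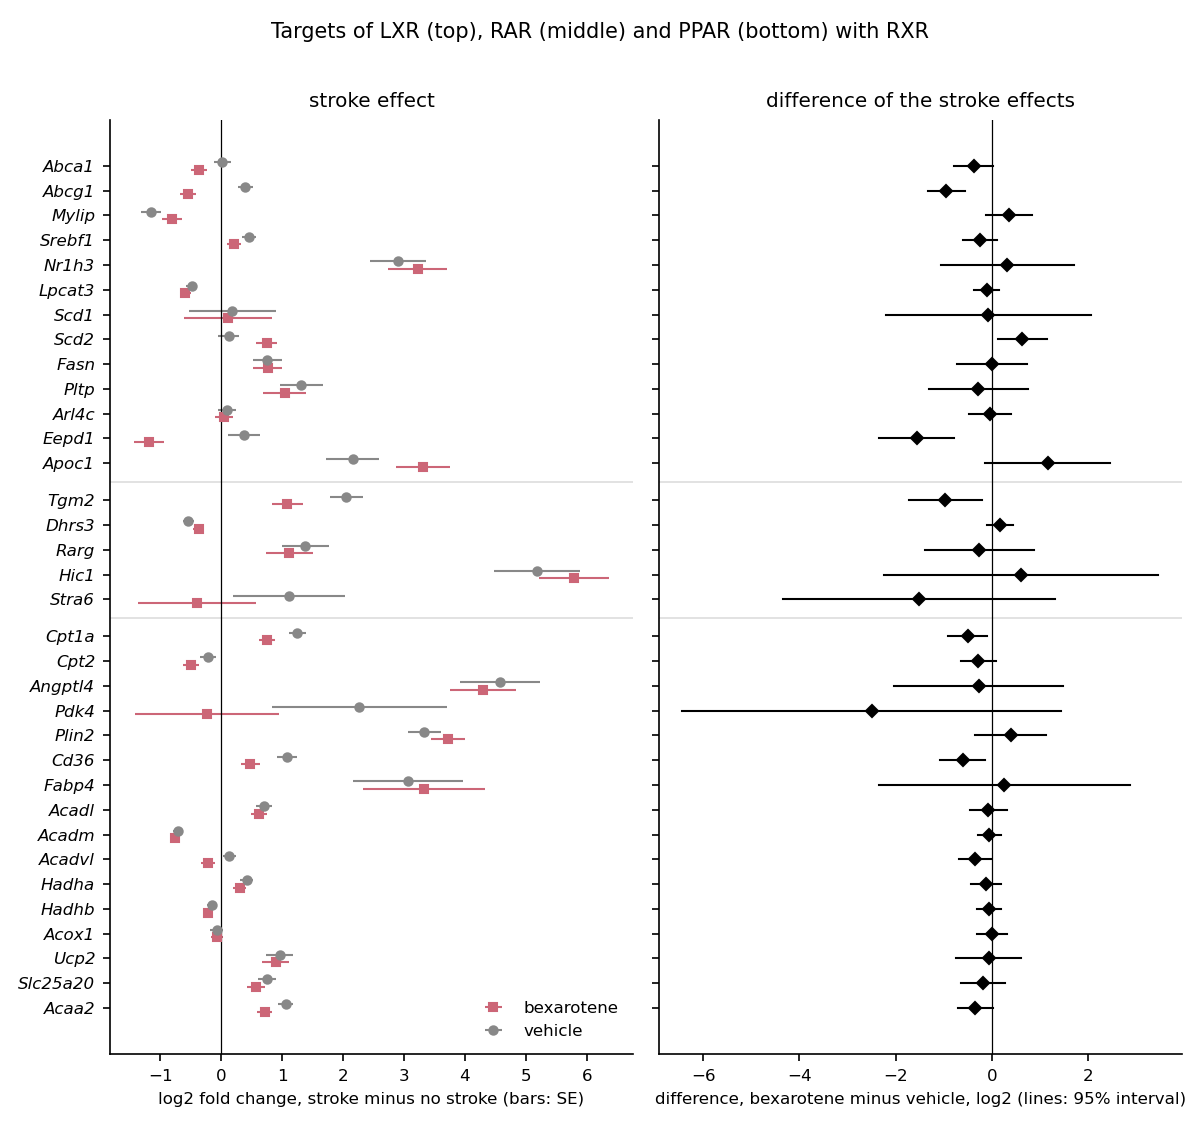
Left, log2 fold change of stroke minus no stroke with its SE under bexarotene (red squares) and vehicle (grey circles) for 13 LXR, 5 RAR and 16 PPAR targets; right, the difference of the effects, bexarotene minus vehicle, with its unadjusted 95% interval. The intervals of Abcg1 and Eepd1 lie furthest below 0 relative to their width, and edgeR called no gene for the difference.

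Outside the receptor targets, a few genes described above, picked after their values were seen, had these values. For Vegfa the fold change was 4.88 ± 0.59 under bexarotene and 2.12 ± 0.53 under vehicle, a difference of 2.76 (1.09 to 4.43). Cdk1 had 4.88 ± 0.20 and 4.04 ± 0.19, a difference of 0.83 (0.25 to 1.41), and H2-K1 differed by 0.68 (0.26 to 1.10). Il6 fell more under bexarotene, by -0.98 (-1.80 to -0.17), and Il1b rose less, by -1.91 (-3.81 to -0.01). P2ry12 differed by 0.09 (-0.38 to 0.56) and Tmem119 by 0.02 (-0.37 to 0.40), so for these a difference of 2-fold lies outside the interval. None of the 7 was called by edgeR.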

How the data were processed

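The deposited table holds raw read counts per gene, made by the authors for 18 libraries in 6 groups of 3. The submitters' processing notes name Trimmomatic 0.40, STAR 2.7.10a, GATK, R 4.4.2 and the GRCm39 genome; the sources used here give neither their settings, nor the annotation, nor the counting program. Of 57010 genes in the table, 52029 had a symbol through GENCODE M21 or RefSeq tables, used for names only, and the other 4981 held 0.339% of the counts. Promoter sequences are from RefSeq on GRCm38.p6 and were matched by symbol.

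The test was that of edgeR 4.0.16 (R 4.3.3): filterByExpr, TMM scaling and a robust quasi-likelihood F test in 1 model over all 18 libraries (12 residual degrees of freedom), with Benjamini-Hochberg adjustment over 15528 genes and a threshold of 0.05. The SE is the log2 fold change divided by the square root of F. The scripts were tested on simulated data. Alternatives were other scalings, no filter, DESeq2 1.42.0, limma 3.58.1 with voom, the compared groups alone, a replicate block, thinned counts and leaving out each library. Counting intervals and floors cover counting error only.

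Named genes were, for each sign, the 15 with the largest change among called genes whose groups did not overlap and whose higher group averaged 20 CPM or more, up to 4 members of each of 46 lists with the lowest p, a set of fixed genes, and for the difference the 5 genes of each sign with the lowest p. Other members, named to complete a short count, to show a range or a promoter, or as lists of exceptions, were chosen after their values were seen. The comparison, the members and the lists were chosen with earlier results of these data known. Some genes are not reported here.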

Additional observations from a re-analysis of the deposited data

How the results depend on the processing

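The number of genes changed by stroke under bexarotene, 7450, ranged from 6172 to 7790 over the alternatives run, and from 6172 to 6978 when 1 library was left out. With libraries scaled by their totals 49.3% of calls were higher, against 55.8%, and the median of all genes was -0.082. The number of genes whose stroke effect differed from that under vehicle was 0 in all alternatives but DESeq2, which gave 2, and no filter on low counts, which gave 256 (61 higher and 195 lower, 232 of them among the 15528 tested); the cause was not tested. To look for pairing, the mean log CPM of its group was taken off each gene in each library. In what remained, same-numbered libraries with and without stroke correlated at 0.13, 0.12 and 0.03. Each library correlated best with its own number in the other group, and the samples share only a number. A replicate block gave 7790 calls for stroke and 0 for the difference.

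Of 250 named genes, 199 kept call and direction in every alternative, 26 lost the call, 15 gained one and 11 changed direction in at least 1, none of which had been called. With library totals the log2 fold change turned to -0.035 for Arl4c, -0.047 for Cd9 and -0.055 for Fcrls. With limma voom it turned to 0.395 for Hba-a2, 0.385 for Hbb-bs, 0.319 for Hbb-bt and -0.002 for Scd1. With the replicate block it turned to 0.081 for Hba-a2 and 0.007 for Hbb-bs. With 1 library left out the values ran from -0.146 to 0.805 for Alas2, -0.092 to 0.183 for Arl4c, -0.105 to 0.003 for C1qb, -0.065 to 0.149 for Cd9, -0.037 to 0.138 for Fcrls, -0.592 to 0.7 for Hba-a2, -0.604 to 0.647 for Hbb-bs, -0.787 to 0.498 for Hbb-bt, -2.419 to 0.295 for Igkc, -0.378 to 0.337 for Scd1 and -1.366 to 0.599 for Stra6; the cause was not tested. Saa3 and Ccr7 lost their calls with limma voom alone. The counts called higher for mitosis (22), interferon (18), ribosomal protein (32) and monocyte (16) genes were the same in every alternative. With no filter, 7 neutrophil markers were higher in place of 1, and 6 choroid plexus markers lower in place of 0.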
